A study of Mus musculus with 9 samples.

Results

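SMAD proteins carry the signal of TGF-β and of the related activins and bone morphogenetic proteins (BMPs) from the cell surface to the nucleus, and the feedback genes limit that signal. The genes described are Smad1, Smad2, Smad3, Smad4, Smad6, Smad7, Ski, Skil, Tgif1, and Pmepa1, chosen by symbol. All 10 were found among the 43346 genes of the deposited table, and all 10 were among the 16877 genes abundant enough to be tested. They were measured in Col1a1-GFP lung fibroblasts of aged mice that had received either saline (aged sham, 4 mice) or bleomycin (aged bleo, 5 mice).

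Ligand binding lets a type II receptor activate a type I receptor, which phosphorylates the receptor-activated SMADs: SMAD2 and SMAD3 mainly below TGF-β and activin receptors, SMAD1 mainly below BMP receptors. These join the common partner SMAD4 and regulate genes in the nucleus, among them collagen and other matrix genes of fibroblasts, and TGF-β is a central driver of lung fibrosis. The pathway is also limited by inhibitors, some of which it induces itself. SMAD6 and SMAD7 act at the receptors. The SKI and SKIL (SnoN) proteins and TGIF1 repress SMAD target genes, and the membrane protein PMEPA1 holds SMAD2 and SMAD3 away from the receptor. Transcript levels do not report the phosphorylation on which this signaling depends.

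Both groups carried the Col1a1-GFP transgene, in which a collagen I promoter drives GFP, and, per the study's methods, were male mice on an FVB background. A single intratracheal instillation of saline or of bleomycin, a drug that injures the lung, was followed by 30 days before the lungs were taken. The sample labels give the age both as 72 weeks and as 18 months. Lung cells positive for GFP and negative for CD45, CD31, and EpCAM, surface proteins of hematopoietic, endothelial, and epithelial cells, were sorted, and their polyadenylated RNA was sequenced. The reporter selects cells with an active collagen I promoter, so each library is the bulk RNA of a mixture of such cells, and a change in the number of cells that express a gene and a change in RNA per cell cannot be told apart. The sample titles number the fibroblast samples within each group and do not name mice, and the libraries were taken as separate animals.

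Counts summed to 49921946 to 62370512 per aged sham library and to 53833507 to 68260600 per aged bleo library. The lowest count of any of the 10 genes in any library was 537, for Smad6. Fibroblast markers summed to 26749.9 to 32514 CPM (counts scaled to a common library size) in aged sham and to 55426 to 72697 CPM in aged bleo. Of the 8 markers, the collagen genes Col1a1, Col1a2, and Col3a1, which carried the higher sum, were called higher, and Dcn (-1.54), Pi16 (-1.51), and Tcf21 (-1.10) were called lower, with a median log2 fold change of -0.31. Of the genes behind the sort, Pecam1 (CD31) averaged 6.12 and 4.34 CPM in aged sham and aged bleo, Epcam 0.593 and 0.668 CPM, and Ptprc (CD45) 87.0 and 65.0 CPM, so CD45 transcripts remained in both groups. No 2 libraries of a group were duplicates, but aged bleo 4 and aged bleo 5 stood apart: a chi-square per degree of freedom, which is 1 where libraries differ by counting error alone, was 99.8 to 286 between either of them and aged bleo 1 to 3, against 22.2 to 48.5 among aged bleo 1 to 3 and 20.5 to 45.6 within aged sham. Values without both libraries are therefore given for some of the results, an alternative chosen after the data had been seen. The last number in the library names, whose meaning the labels do not explain, is 4 for aged sham and aged bleo 4, but 5 in aged bleo 1 to 3 and 6 in aged bleo 5. This number thus largely follows the groups. A difference tied to it, if there is one, cannot be told apart from that between aged bleo and aged sham.

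The comparison of aged bleo with aged sham asks how these transcripts differ between injured and uninjured lungs. Pmepa1 rose to 2.07-fold in aged bleo. Smad7 and Tgif1 were higher by smaller factors, Ski and Smad1 were lower at the FDR threshold alone, and Smad2, Smad3, Smad4, Smad6, and Skil did not pass the test. A gene was called when its FDR, the Benjamini-Hochberg adjusted p of edgeR's quasi-likelihood test over all genes tested, was under 0.10 and its fold change was over 1.5. By this rule 1 of the 10 genes was called, in a comparison where 23.8% of all genes tested were called (12.3% higher and 11.5% lower), so the share of called genes was not above the background. An FDR under 0.10 alone was met by 5 of the 10, of which 3 were higher (Pmepa1, Smad7, Tgif1) and 2 lower (Smad1, Ski), against 44.8% of all genes tested. The groups did not overlap for 4 of the 10, higher for Pmepa1, Smad7, and Tgif1 and lower for Smad4, against 32.2% of all genes (16.1% higher and 16.1% lower). The median log2 fold change of the 10 was -0.08 beside 0.01 over all genes, and the median size of the change was 0.34 beside 0.29.

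**Figure D1:**
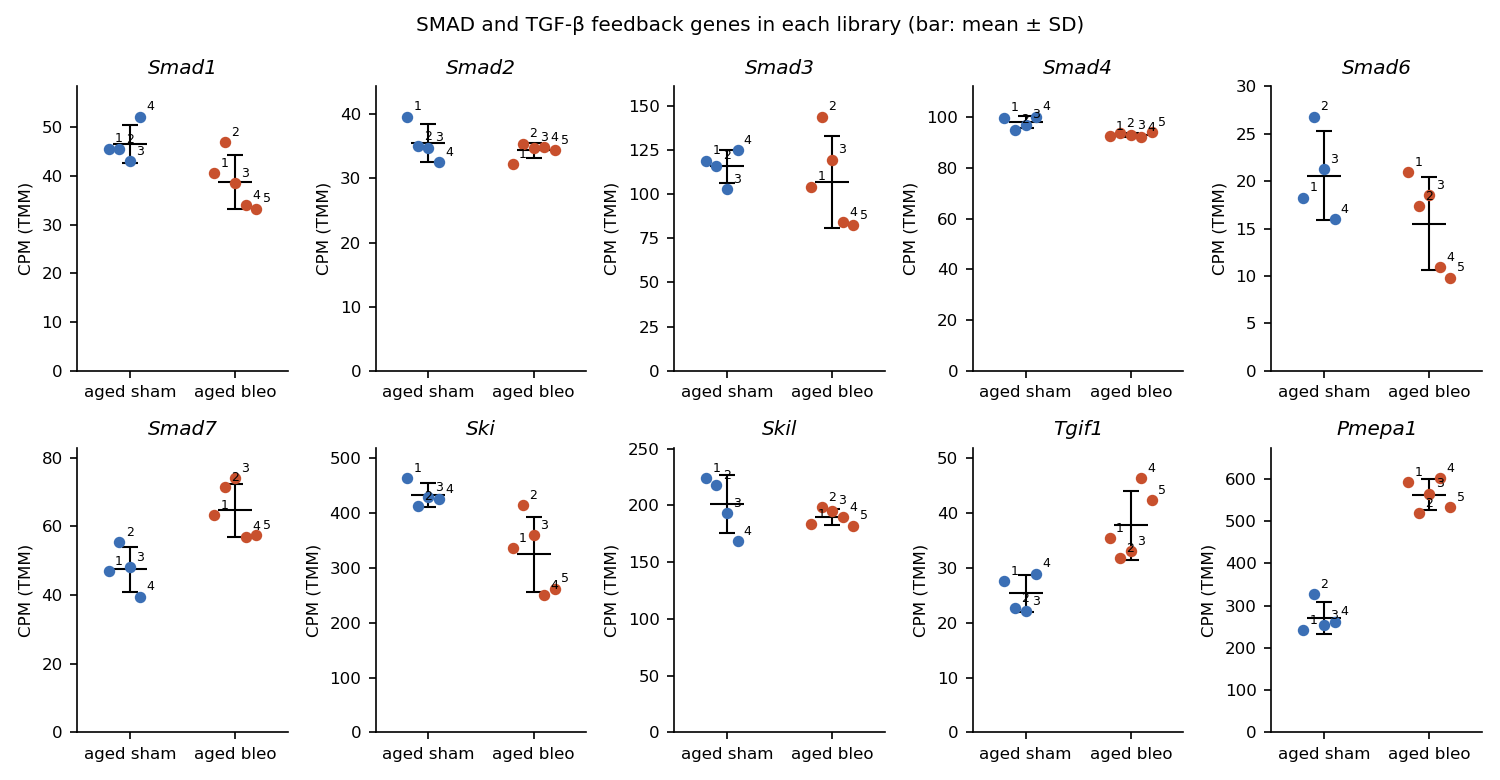
Level of each of the 10 genes in each library, in TMM-normalized CPM (linear axes from 0). Points are libraries numbered by replicate, bars show group means, and error bars show the SD over 4 aged sham or 5 aged bleo mice. Pmepa1 lies between 242 and 327 CPM in uninjured and between 518 and 601 CPM in injured mice, and aged bleo 4 and 5 lie lowest for Smad3, Smad6, and Ski.

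Pmepa1 (ENSMUSG00000038400, GRCm38 chromosome 2, 173224458 to 173276533) encodes the membrane protein that withholds SMAD2 and SMAD3 from the TGF-β receptor, and it is itself a TGF-β target. Its levels were 242, 327, 254, and 262 CPM in aged sham 1 to 4 and 592, 518, 564, 601, and 532 CPM in aged bleo 1 to 5. The lowest injured library was thus well above the highest uninjured one. Means were 271 ± 38.1 CPM (SD, n = 4) and 562 ± 36.3 CPM (SD, n = 5), a log2 fold change of 1.05 (SE 0.11, 95% confidence interval 0.81 to 1.29, FDR 2.13e-04). Pmepa1 was called in all 23 alternative analyses, with log2 fold changes of 1.00 to 1.17. The scatter among the injured mice was small, with a coefficient of variation of 6.47%, and aged bleo 4 and 5 were on either side of the mean. Without these 2 libraries the log2 fold change was 1.04 (FDR 7.4e-04).

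Smad7 (ENSMUSG00000025880, chromosome 18, 75367529 to 75395935) encodes the inhibitory SMAD that blocks type I receptors and brings ubiquitin ligases to them. It stood at 47.0, 55.4, 48.0, and 39.5 CPM in aged sham and at 63.2, 71.4, 74.1, 57.1, and 57.4 CPM in aged bleo. The groups did not overlap, although aged bleo 4 and 5 came close to aged sham 2. Mean levels were 47.5 ± 6.50 CPM (SD, n = 4) and 64.6 ± 7.86 CPM (SD, n = 5). The log2 fold change was 0.44 (SE 0.12, interval 0.18 to 0.71, FDR 0.018), or 1.36-fold, which is past the FDR threshold and below the fold threshold. With any single library left out it was 0.36 to 0.53 with an FDR of at most 0.0488, and without aged bleo 4 and 5 it was 0.54 (FDR 0.00923). Against aged bleo 4 alone, the only injured library whose name also ends in 4, it was 0.28, without a replicate in the injured group.

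Smad6 (ENSMUSG00000036867, chromosome 9, 63953076 to 64022059), the other inhibitory SMAD, acts mainly on BMP signaling. It had 18.3, 26.8, 21.3, and 16.01 CPM in aged sham and 20.9, 17.3, 18.5, 10.9, and 9.83 CPM in aged bleo. Aged bleo 1 to 3 lay within the aged sham range, and aged bleo 4 and 5 were below it. The means of 20.6 ± 4.67 CPM (SD, n = 4) and 15.5 ± 4.88 CPM (SD, n = 5) gave a log2 fold change of -0.41 (SE 0.25, interval -0.96 to 0.14, FDR 0.222). Without aged bleo 4 and 5 the value was -0.13 (FDR 0.604). Smad6 was the most variable of the 10 genes within both groups, with coefficients of variation of 22.7% and 31.4%.

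The receptor-activated SMADs did not pass both thresholds. Smad2 (ENSMUSG00000024563, chromosome 18, 76241580 to 76305731), a mediator of TGF-β and activin signals, had 39.7, 35.1, 34.8, and 32.5 CPM in aged sham and 32.2, 35.4, 34.8, 34.9, and 34.5 CPM in aged bleo. Its groups overlapped almost fully. The means were 35.5 ± 3.00 CPM (SD, n = 4) and 34.4 ± 1.24 CPM (SD, n = 5), with a log2 fold change of -0.05 (SE 0.07, interval -0.20 to 0.11, FDR 0.624). The interval leaves out changes beyond 0.20 in either direction on the log2 scale.

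Smad3 (ENSMUSG00000032402, chromosome 9, 63646767 to 63757994) encodes the DNA-binding mediator of many matrix genes that respond to TGF-β. Aged sham libraries held 119, 116, 103, and 125 CPM, and aged bleo libraries 104, 144, 119.5, 84.1, and 82.3 CPM. The injured group thus extended both above and below the uninjured one, with aged bleo 2 highest and aged bleo 4 and 5 lowest. Mean levels of 116 ± 9.34 CPM (SD, n = 4) and 107 ± 25.8 CPM (SD, n = 5) gave a log2 fold change of -0.11 (SE 0.16, interval -0.48 to 0.25, FDR 0.618). The coefficient of variation was 8.08% in aged sham and 24.1% in aged bleo. Leaving out aged bleo 4 and 5 turned the direction, to a log2 fold change of 0.08 (FDR 0.64).

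Smad1 (ENSMUSG00000031681, chromosome 8, 79338395 to 79399518), a mediator of BMP signals, had 45.6, 45.5, 43.0, and 52.2 CPM in aged sham and 40.5, 47.0, 38.5, 34.0, and 33.3 CPM in aged bleo. Of the injured libraries, aged bleo 2 alone lay within the aged sham range, and the other 4 were below it. The means were 46.5 ± 3.92 CPM (SD, n = 4) and 38.6 ± 5.55 CPM (SD, n = 5), with a log2 fold change of -0.27 (SE 0.11, interval -0.52 to -0.02, FDR 0.0841). With single libraries left out, the log2 fold change was -0.35 to -0.21 and the FDR was under 0.10 in 2 of 9 cases, without aged sham 3 (0.0958) and without aged bleo 2 (0.0168). It was 0.129 without aged sham 1, 0.132 without aged sham 2, 0.207 without aged sham 4, 0.107 without aged bleo 1, 0.134 without aged bleo 3, 0.13 without aged bleo 4, and 0.164 without aged bleo 5. Without both aged bleo 4 and 5 the log2 fold change was -0.15 (FDR 0.244).

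Smad4 (ENSMUSG00000024515, chromosome 18, 73639009 to 73703780), the common partner, was the least variable gene of the set. It had 99.8, 95.01, 96.9, and 100.1 CPM in aged sham and 92.4, 93.7, 93.0, 92.0, and 94.0 CPM in aged bleo, with coefficients of variation of 2.48% and 0.897%. Every injured library was below every uninjured one, but by a small amount. The means of 98.0 ± 2.43 CPM (SD, n = 4) and 93.0 ± 0.834 CPM (SD, n = 5) gave a log2 fold change of -0.07 (SE 0.05, interval -0.19 to 0.04, FDR 0.269), so the difference did not pass the test.

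**Figure D2:**
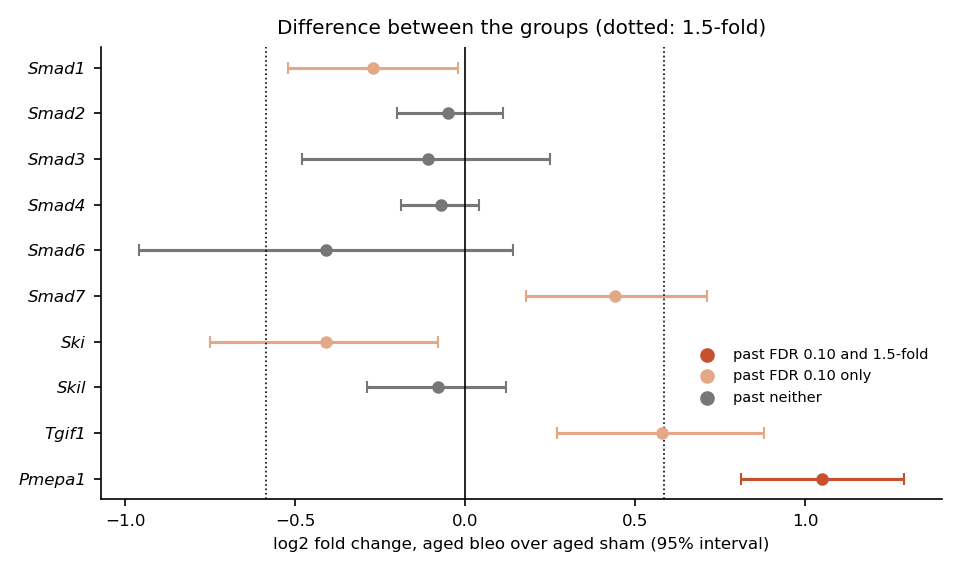
Log2 fold change of aged bleo over aged sham for each gene (horizontal axis), with 95% confidence intervals from edgeR's quasi-likelihood fit. Dotted lines mark a 1.5-fold change, dark red marks the gene past both thresholds, light red those past the FDR threshold only, and grey those past neither. Pmepa1 lies past the upper line at 1.05 and Tgif1 just inside it at 0.58.

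Ski and Tgif1, both nuclear repressors of SMAD target genes, differed in opposite directions. Ski (ENSMUSG00000029050, chromosome 4, 155154075 to 155222592) encodes a protein that binds SMAD complexes and recruits corepressors. Aged sham libraries had 464, 413, 429, and 425 CPM, and aged bleo libraries 337, 414, 360.1, 250.3, and 262 CPM. The injured libraries were lower except aged bleo 2, which overlapped the lowest aged sham library. Means were 433 ± 21.9 CPM (SD, n = 4) and 325 ± 68.6 CPM (SD, n = 5), a log2 fold change of -0.41 (SE 0.15, interval -0.75 to -0.08, FDR 0.0566). The FDR was 0.125 without aged sham 1 (log2 fold change -0.38), 0.10004 without aged sham 4 (-0.42), and 0.112 without aged bleo 5 (-0.35). Without both aged bleo 4 and 5 the log2 fold change was -0.23 (FDR 0.0809). Against aged bleo 4 alone, without a replicate in the injured group, it was -0.77.

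Tgif1 (ENSMUSG00000047407, chromosome 17, 70844205 to 70853546) encodes a homeodomain repressor that competes with coactivators for SMAD2 and SMAD3. It had 27.6, 22.7, 22.2, and 28.9 CPM in aged sham and 35.5, 31.7, 33.0, 46.3, and 42.3 CPM in aged bleo. The groups did not overlap, and aged bleo 4 and 5 were highest. The means of 25.3 ± 3.43 CPM (SD, n = 4) and 37.8 ± 6.30 CPM (SD, n = 5) gave a log2 fold change of 0.58 (SE 0.14, interval 0.27 to 0.88, FDR 0.012), or 1.49-fold, just under the fold threshold. Tgif1 was called on leaving out aged sham 1 (0.62), aged sham 4 (0.64), aged bleo 1 (0.60), aged bleo 2 (0.63), or aged bleo 3 (0.62), which raised the number of called genes from 1 to 2. Without aged bleo 4 and 5 together, the log2 fold change was 0.39 (FDR 0.029). Its FDR was thus under 0.10 in each of these settings, while its fold change lay on either side of the threshold.

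Skil (ENSMUSG00000027660, chromosome 3, 31095058 to 31122577) encodes SnoN, a relative of SKI and a well-known early TGF-β target. It had 224, 218, 193, and 169 CPM in aged sham and 184, 199, 196, 189, and 182 CPM in aged bleo. The injured libraries all lay within the aged sham range. Mean levels of 201 ± 25.3 CPM (SD, n = 4) and 189.8 ± 7.21 CPM (SD, n = 5) gave a log2 fold change of -0.08 (SE 0.09, interval -0.29 to 0.12, FDR 0.507).

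Promoter windows were searched for the letters of known SMAD elements on both strands. CAGAC or its reverse complement GTCTG is the core of the CAGA box bound by SMAD3 and SMAD4. Also searched were the palindrome GTCTAGAC and GGCGCC (a GC-rich element of SMAD1 and SMAD5). RefSeq windows of 250 bases before the start were matched for Smad1, Smad3, Smad6, Ski, and Tgif1. None of the letters were found in the windows of Smad1, Smad3, and Smad6. Ski had 1 match to GGCGCC, and CAGAC or GTCTG occurred in 3 of the 5 windows of Tgif1. Of all 32851 promoter windows of this length, 42.2% held CAGAC or GTCTG, 0.167% held GTCTAGAC, and 9.59% held GGCGCC. The windows of Ski and Tgif1 are shown because these repressors differed in opposite directions and their windows hold a match. The sequences are from RefSeq (GRCm38.p6), on the minus strand, 5′ to 3′, at chr4:155222593-155222785 for Ski and chr17:70853547-70853782 for Tgif1, cut to the bases upstream of the deposited gene, with the matched letters in capitals. A match describes these letters and not a binding site.
Ski: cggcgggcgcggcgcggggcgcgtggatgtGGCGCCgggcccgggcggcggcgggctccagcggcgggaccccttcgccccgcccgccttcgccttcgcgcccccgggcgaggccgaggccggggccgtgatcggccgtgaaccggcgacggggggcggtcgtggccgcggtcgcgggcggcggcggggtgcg
Tgif1: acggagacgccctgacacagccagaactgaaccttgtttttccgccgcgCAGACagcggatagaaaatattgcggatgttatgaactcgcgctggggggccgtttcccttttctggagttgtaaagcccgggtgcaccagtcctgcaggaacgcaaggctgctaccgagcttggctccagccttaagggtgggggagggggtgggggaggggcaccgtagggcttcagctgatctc

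Aged bleo 4 and 5 held the lowest levels of Smad1, Smad3, Smad6, Smad7, and Ski within aged bleo and the highest levels of Tgif1, whereas Smad2, Smad4, Skil, and Pmepa1 did not separate these libraries from aged bleo 1 to 3. The heat map of levels relative to the aged sham mean shows this split. Cell cycle markers summed to 394 and 340.1 CPM in aged bleo 4 and 5, to 85.7 to 167 CPM in aged bleo 1 to 3, and to 60.1 to 117 CPM in aged sham, and 8 of 9 were called higher. Immediate early markers summed to 4781 and 5737 CPM in aged bleo 4 and 5, to 8641 to 10717 CPM in aged bleo 1 to 3, and to 12945 to 17664 CPM in aged sham, and 7 of 7 were called lower. Macrophage markers, of which 5 of 8 were called higher, summed to 1821 CPM in aged bleo 4 and 860.02 CPM in aged bleo 5, to 525 to 702 CPM in aged bleo 1 to 3, and to 225 to 607 CPM in aged sham. The part of these differences in the levels of the 10 genes was not tested. Over all genes tested, 12.3% were called higher and 11.5% lower.

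**Figure D3:**
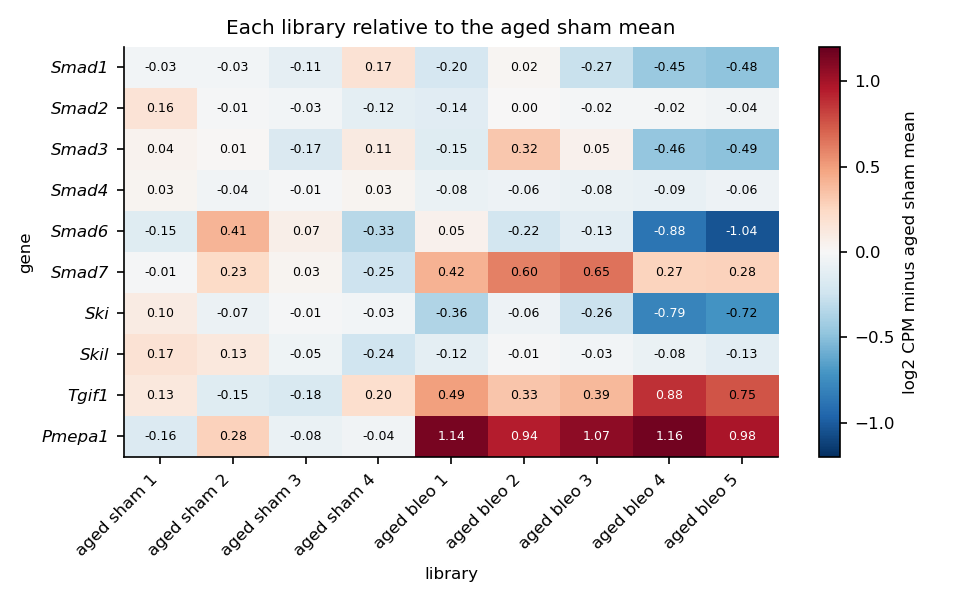
Log2 CPM of each gene (rows) in each library (columns), minus the gene's aged sham mean, on the color scale and printed in each cell in log2 units. Pmepa1 separates the groups throughout, and aged bleo 4 and 5 are low for Ski, Smad3, and Smad6 and high for Tgif1.

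Neutrophil markers summed to 152 to 937 CPM in aged sham and to 83.3 to 841 CPM in aged bleo, with 0 of the 6 tested called, and lymphocyte markers to 5.12 to 12.6 and 2.05 to 16.7 CPM, with 1 of 6 higher and 3 lower. Epithelial markers summed to 10.3 to 82.1 and 17.2 to 53.5 CPM, with 1 of 8 higher and 1 lower. Smooth muscle and pericyte markers summed to 1425 to 2830.2 and 834 to 1833 CPM, with 2 of 8 higher and 3 lower. Endothelial markers summed to 160.1 to 194 and 24.7 to 67.7 CPM, with no overlap. Of the 6 tested, 2 were called higher (Kdr, 0.61, and Egfl7, 0.88) and 1 lower, Tek (149 to 179 CPM in aged sham, 9.51 to 55.7 CPM in aged bleo), which carried the difference in the sums, while the defining endothelial genes Cdh5 and Cldn5 were below 2.26 CPM in every library. No marker of any list was at 0 in all libraries. The part of these cell types in the results was not tested. Beside these counts, 12.3% of all genes tested were called higher and 11.5% lower.

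To compare the genes with each other, levels were taken per length, as the FPKM values deposited by the authors. In aged sham, Ski was most abundant at 32.6 ± 1.63 FPKM (SD, n = 4), followed by Pmepa1 at 23.2 ± 3.49 FPKM and Smad4 at 11.1 ± 0.144 FPKM. Smad3 (8.74 FPKM) and Skil (8.71 FPKM) overlapped, as did Smad7 (4.41 FPKM) and Smad2 (4.198 FPKM). Smad1 (3.35 FPKM), Smad6 (2.70 FPKM), and Tgif1 (1.89 FPKM) closed the order, each overlapping the next. In aged bleo, Pmepa1 came first at 49.2 ± 4.28 FPKM (SD, n = 5), above Ski at 20.2 to 31.2 FPKM with no overlap, so the order of these genes was exchanged. Smad4 (10.8 FPKM) was next, then Skil (8.42 FPKM), Smad3 (8.25 FPKM), and Smad7 (6.13 FPKM), of which neighbors overlapped, then Smad2 (4.16 FPKM), and last Tgif1 (2.90 FPKM), Smad1 (2.85 FPKM), and Smad6 (2.07 FPKM), again overlapping their neighbors.

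**Figure D4:**
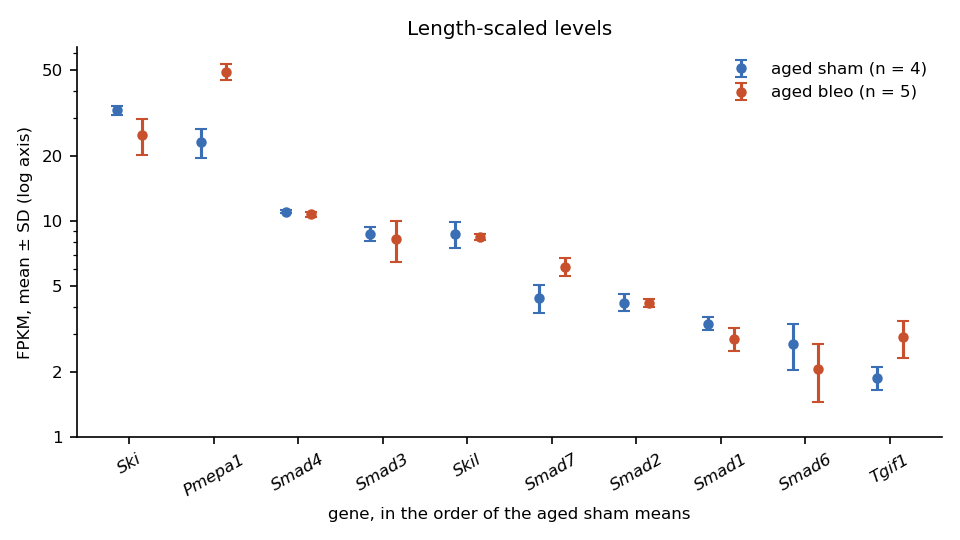
FPKM of the 10 genes in aged sham (blue) and aged bleo (red) on a logarithmic axis. Points are group means and error bars the SD over 4 or 5 libraries, with genes in the order of the aged sham means. Ski is highest in aged sham (mean 32.6 FPKM) and Pmepa1 in aged bleo (mean 49.2 FPKM).

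The summed FPKM of the 6 SMAD genes was 34.5 ± 1.30 (SD, n = 4) in aged sham and 34.3 ± 2.79 (SD, n = 5) in aged bleo. Within this sum, Smad7 made up 10.8% to 14.4% in aged sham and 17.4% to 19.2% in aged bleo. The share of Smad4 was 32.1% ± 1.39 and 31.7% ± 3.27, and that of Smad3 25.4% ± 1.79 and 23.9% ± 3.25. The ratio of Smad7 to Smad6 was 1.47 to 1.82 in aged sham and 2.14 to 4.14 in aged bleo, with no overlap. By contrast, the ratio of Smad3 to Smad2 was 2.10 ± 0.262 and 1.99 ± 0.457, and its ranges of 1.89 to 2.46 and 1.53 to 2.60 overlapped. Relative to Smad7, Pmepa1 was at 4.74 to 6.09 in aged sham and at 6.67 to 9.70 in aged bleo. Ski relative to Skil was at 3.79 ± 0.459 and 2.97 ± 0.549. These shares and ratios restate the levels above and were not tested.

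The other genes of the pathway were read from lists of ligands and receptors, regulators of SMADs, and SMAD targets. Among 24 tested ligands and receptors of the TGF-β family, 7 rose and 4 fell, against 12.3% higher and 11.5% lower over all genes tested. The median log2 fold change of the 24 was 0.14. Inhba, an activin subunit, rose from 6.85 ± 1.27 to 60.1 ± 32.2 CPM (log2 fold change 3.13, SE 0.42, FDR 9.28e-04). Inhbb, another activin subunit, rose from 4.70 ± 1.15 to 22.2 ± 5.60 CPM (2.24, SE 0.23, FDR 2.24e-04), and Tgfb1, the main fibrotic TGF-β ligand, from 26.5 ± 1.09 to 109 ± 28.1 CPM (2.04, SE 0.18, FDR 9.79e-05). The BMP ligand Bmp6 fell from 19.2 ± 1.30 to 4.41 ± 2.22 CPM (-2.12, SE 0.36, FDR 0.00267), and Tgfbr3, the coreceptor betaglycan, from 396 ± 35.4 to 195 ± 77.5 CPM (-1.02, SE 0.28, FDR 0.0193). Acvrl1, a type I receptor upstream of SMAD1, fell from 176 ± 7.98 to 108 ± 38.0 CPM (-0.70, SE 0.24, FDR 0.0476), a call lost without aged bleo 4 (-0.57) or aged bleo 5 (-0.58). Without both, Acvrl1 was at -0.39, while Tgfbr3, at -0.70, Inhba, at 2.45, and Bmp6, at -1.71, were still called. The remaining called genes are added to complete this list. The BMP ligands Bmp5 (1.34, FDR 1.53e-04) and Bmp7 (1.83, FDR 0.00533) rose. Of the receptors, Acvr1 (0.64, FDR 2.9e-04) and Bmpr1b (1.18, FDR 0.0317) rose, and Acvr2a (-0.61, FDR 0.0298) fell. The call of Acvr2a was lost without aged sham 4, aged bleo 4, or aged bleo 5. Without both aged bleo 4 and 5, 7 genes of the list were called higher and 2 lower, Bmp6 and Tgfbr3. The receptors of TGF-β itself, Tgfbr1 and Tgfbr2, had log2 fold changes of 0.04 (FDR 0.705) and 0.36 (FDR 0.0446) and were not called; they were looked up after the values had been seen.

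Of the other SMADs and regulators of SMAD activity, 33 of 34 were tested. Of these, 1 rose, 1 fell, and 31 were not called, against 12.3% higher and 11.5% lower over all genes tested. The median log2 fold change of the 33 was -0.05. Tgif2, the paralog of Tgif1, rose from 8.85 ± 1.53 to 15.1 ± 2.61 CPM (0.77, SE 0.16, FDR 0.0066). Bambi, a decoy receptor, fell from 24.9 ± 3.58 to 16.6 ± 2.12 CPM (-0.59, SE 0.12, FDR 0.00715), a call lost without aged sham 2 (-0.51), aged sham 3 (-0.55), aged bleo 3 (-0.58), aged bleo 5 (-0.52), or both aged bleo 4 and 5 (-0.50). An FDR under 0.10 alone was met by 2 of these genes upward and by 10 downward, against 23.4% and 21.4% of all genes tested. Chosen after their values were seen, the lower genes included the ubiquitin ligases Smurf2 (-0.27, FDR 0.041) and Wwp1 (-0.41, FDR 0.0101). Also chosen in this way were the SMAD phosphatases Ppm1a (-0.28, FDR 0.0253) and Ctdsp2 (-0.36, FDR 0.0339) and the transcription factor Zeb1 (-0.51, FDR 0.021). Each was lower by less than 1.5-fold. The SMADs outside the 10 were Smad5, at 132 ± 5.62 and 137 ± 6.29 CPM (0.05, FDR 0.564), and Smad9, at 13.0 ± 1.27 and 9.46 ± 2.15 CPM (-0.45, FDR 0.0623).

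**Figure D5:**
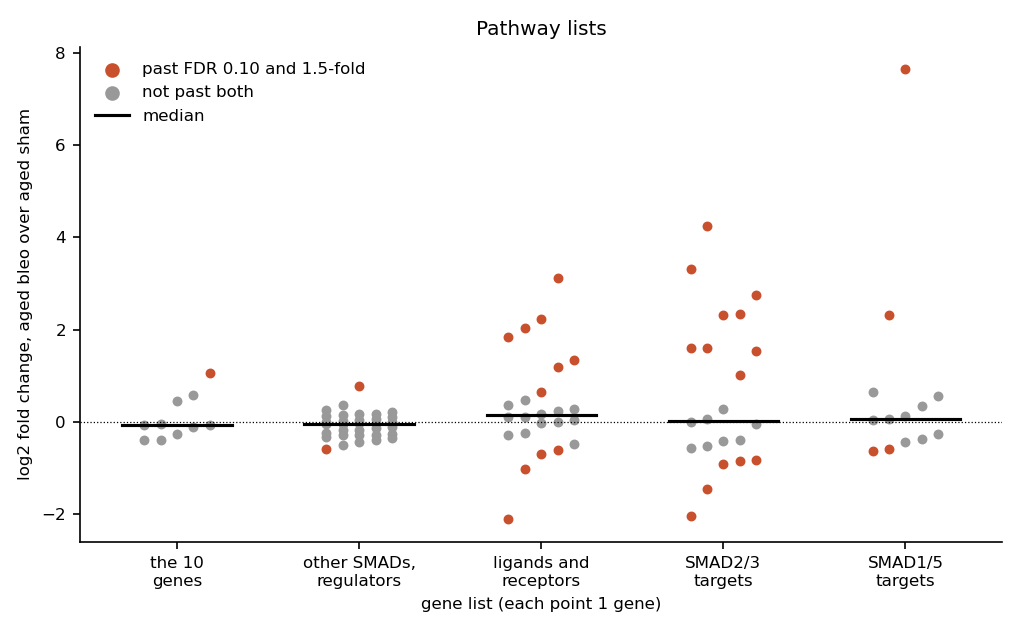
Log2 fold change of aged bleo over aged sham for every tested gene of the 10 genes and of the 4 pathway lists. Red points were called (FDR under 0.10 and fold change over 1.5), grey points were not, bars mark medians, and the dotted line marks 0. The SMAD regulators lie between -0.59 and 0.77, while ligands, receptors, and targets spread from -2.12 to 7.65.

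Target genes did not move together. Of 22 genes regulated by SMAD2 and SMAD3, 9 rose, 5 fell, and 8 were not called, against 12.3% higher and 11.5% lower over all genes tested. The median log2 fold change of the 22 was 0.02. The largest increases were in Ltbp2, a matrix protein of microfibrils, from 86.5 ± 32.9 to 1633 ± 308 CPM (4.24, SE 0.28, FDR 2.32e-05), Adam12, a metalloprotease, from 6.66 ± 8.32 to 66.6 ± 37.0 CPM (3.31, SE 0.82, FDR 0.0144), and Timp1, a metalloprotease inhibitor, from 57.3 ± 3.81 to 386 ± 166 CPM (2.75, SE 0.33, FDR 5.19e-04). The largest decreases were in Itgb6, an epithelial integrin subunit at 0.804 ± 0.407 and 0.188 ± 0.201 CPM (-2.04, SE 0.70, FDR 0.0476), Tgfbi, a secreted adhesion protein, from 818 ± 109 to 295 ± 64.1 CPM (-1.47, SE 0.17, FDR 3.47e-04), and Cyr61, a matricellular protein, from 1151 ± 467 to 613 ± 212 CPM (-0.91, SE 0.34, FDR 0.0612). The call of Cyr61 was lost without aged sham 2 (-0.64), aged sham 3 (-0.84), aged bleo 5 (-0.83), or both aged bleo 4 and 5 (-0.61, FDR 0.151). Itgb6 fell under the count filter, and was not tested, without aged sham 2, aged sham 4, or aged bleo 4. It was at -3.67 without both aged bleo 4 and 5 and at -0.61 against aged bleo 4 alone. Without both aged bleo 4 and 5, Adam12 was at 2.66, and 9 genes of the list were called higher and 3 lower. Junb, a target and an immediate early gene, fell by 0.83 on the log2 scale (FDR 0.0209) and was picked after its value was known. This list holds Col1a1, whose promoter drives the sorted reporter. Of 13 tested targets of SMAD1 and SMAD5, 2 rose, 2 fell, and 9 were not called, against the same shares of all genes, with a median of 0.06. The BMP antagonists Grem1, from 2.24 ± 0.462 to 453 ± 185 CPM (7.65, SE 0.43, FDR 1.23e-05), and Nog, from 0.152 ± 0.0418 to 0.766 ± 0.242 CPM (2.32, SE 0.31, FDR 8.13e-04), were those that rose, Nog at a very low level that fell under the count filter without aged bleo 1 or without both aged bleo 4 and 5. Id2, an inhibitor of basic helix-loop-helix factors, fell from 74.2 ± 7.99 to 48.1 ± 6.60 CPM (-0.63, SE 0.11, FDR 0.00384), a call lost without aged sham 2 (-0.55), aged bleo 5 (-0.57), or both aged bleo 4 and 5 (-0.56), and Bambi, which is on both lists, was the other.

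The genes whose levels over the 9 libraries were most like those of each gene were found by the root mean square (RMS) difference of centred log2 CPM, given as a description. For Pmepa1, whose own RMS deviation from its mean was 0.54, they were Csdc2, Vstm4, and Emilin1, each at an RMS difference of 0.10 and with log2 fold changes of 0.95, 1.11, and 0.99. For Smad7 (own RMS 0.28) they were Slc1a4 at 0.09, Cdc42ep1 at 0.10, and Lnx2 at 0.11. Ski (own RMS 0.30) was matched most closely by Ccdc157, Sept8, and Arhgef40, each at 0.06, and Tgif1 (own RMS 0.34) by Taco1, Ica1l, and Mcts2, each at 0.09. The nearest genes were Soga1 (0.09) for Smad3, Abcb9 (0.14) for Smad6, Taz (0.04) for Smad1, Fbxw11 (0.03) for Smad2, Tox4 (0.03) for Smad4, and Ppp1r18 (0.05) for Skil. None of these nearest genes belonged to the 10 or to the pathway lists.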

How the data were processed

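Bulk RNA-Seq of sorted fibroblasts was analysed for 9 aged mice, 4 aged sham and 5 aged bleo. The authors deposited 1 table with raw read counts per gene and FPKM values, whose scaling implies a library total of 2.27 to 2.42 times the column's summed counts. The submitters' processing notes name bcl2fastq, STAR 2.5.2b, featureCounts of Subread, and mm10 (GRCm38). Of the gene identifiers shared with GENCODE M21, 78.8% had its positions, as did 9 of the 10 genes (not Smad2). Strand use in counting is not given in the sources used here. No other gene shares exon bases with the 10 genes in that annotation.

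Libraries were grouped by their labels. Tested genes had a mean count of 25 or more, and TMM-normalized counts were tested with edgeR 4.0.16 (glmQLFit and glmQLFTest, no covariate) in R 4.3.3, with Benjamini-Hochberg adjustment over all of them. Filter and thresholds follow the study, which used a moderated test. CPM values are TMM-normalized, log2 CPM uses a prior count of 2, and intervals are 95% intervals from the fit. Alternatives were DESeq2 1.42.0, limma 3.58.1 (limma-trend) on log2 CPM and on log2(FPKM + 1) and log2(FPKM + 0.1), other normalizations, filters, and thresholds, a robust fit, a replicate block, each library left out in turn, and libraries whose names end in 4. The test was tried on simulated data.

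The 10 genes and the lists were chosen with earlier results of these data known. All 10 genes are given in full. From each pathway list, the 3 called genes with the largest change in each direction are named, and for each of the 10 the 3 tested genes of most similar pattern were determined. Genes named beyond this rule are marked in the text, apart from Smad5 and Smad9, which complete the family, the genes of the sort, and markers that carry a sum. Protein sequences and libraries of young mice were not used here.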

Additional observations from a re-analysis of the deposited data

How the results depend on the processing

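Over 23 alternatives, 22 of them listed at the start, 566 of 613 values of named genes kept their direction and their call by both thresholds together, and 2 changed direction: Smad2 was at 0.01 without aged sham 1 (-0.09 to 0.01 over the libraries left out singly) and Smad3 at 0.08 without aged bleo 4 and 5. The stricter thresholds were applied to the fit as reported, so they could change a call but not a direction. Genes far under a 1.5-fold change, such as Smad2, Smad4, and Skil, counted as keeping their call whenever they stayed uncalled. The median log2 fold change of all genes stayed between -0.01 and 0.04. The 4022 calls over all genes became 1785 on log2(FPKM + 1), 6177 with the libraries whose names end in 4, where aged bleo 4 is the only injured library and is assumed to vary as the aged sham libraries do, and 2158 at an FDR under 0.05 and a 2-fold change. They ranged from 3525 to 4597 with single libraries left out. Of the 10 genes, 2 instead of 1 were called with library size as the only normalization and without a filter, 4 with names ending in 4 (with Tgif1 at 0.89, Ski at -0.77, and Smad6 at -0.90 beside Pmepa1), and 1 to 2 with single libraries left out. Of the SMAD regulators, 2 were called in the analysis as reported, 1 with limma-trend on log2 CPM or log2(FPKM + 0.1), scaling to library size alone, no filter, a filter of 10 counts in each library, the replicate block, or without aged bleo 4 and 5, 0 on log2(FPKM + 1) and at the stricter thresholds with a 2-fold change, 10 with names ending in 4, and 1 to 2 with single libraries left out. The calls among SMAD1 and SMAD5 targets went from 4 to 1 on log2(FPKM + 1) and to 2 with at least 10 counts in every library or at the 2-fold threshold, with 3 to 5 when single libraries were left out. The FDR of Smad1, Ski, and Smad4 crossed 0.10 in some of these without a change of call, for Smad4 with DESeq2 alone (-0.08, FDR 0.0524). That of Smad3 (-0.44) and Smad7 (0.28) did so only with names ending in 4, where aged bleo 4 is the only injured library. Of the named genes, Itgb6 (-0.05) and Nog (0.20) shrank most in proportion on log2(FPKM + 1), where the added 1 outweighs their low levels. Neither passed the filter of 10 counts. The causes of the other shifts were not tested.

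Replicate numbers did not pair the libraries: deviations of same-numbered libraries correlated at 0.0922, 0.0623, -0.13, and 0.326, and 1 of 4 aged sham and 1 of 4 aged bleo libraries correlated best with its own number. With the replicate number as a block, 3536 genes were called over all genes, 1 of the 10 (Pmepa1, 1.08), and 1 SMAD regulator, and the FDR of Smad1 was 0.231 and of Ski 0.13. Dixon's test over 20 groups of values flagged no single outlying library for any of the 10 genes. It compares the gap beside the most extreme library with the range of the group. Libraries that lie together at one end therefore hide each other from it. For this reason the test cannot decide whether aged bleo 4 and 5, which were jointly lowest for Ski, Smad3, and Smad6, were outlying. Each of the 10 genes had at least 537 counts in every library. The interval printed with each gene shows the precision reached, with standard errors from 0.05 for Smad4 to 0.25 for Smad6. What sets this precision was not tested.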
